A study of Mus musculus with 4 samples.

Results

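The genes described here are 36 enzymes and transporters that carry sugar into fat in the liver, among 32285 gene symbols measured in nuclei of mouse liver. They were chosen by name, with earlier results of these data known, and all 36 symbols were found in every library. The list covers glycolysis and fructose use, the pentose phosphate path, fatty acid synthesis, desaturation and elongation, fatty acid activation and triglyceride assembly. Livers of mice fasted for 16 to 24 h were compared with livers of fed mice, with 2 libraries per group. Each library was a separate nuclear preparation from frozen liver (50 mg), pooled from 8 mice. Strain, sex, age and time of collection are not given in the sources used here, and neither group is described as carrying any mutation or further treatment. Whether the 2 preparations of each group share mice is not stated in the labels, so a p-value below measures the spread between preparations, which may be technical, and not the spread between mice.

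After a meal the liver takes up glucose and fructose, breaks them down to pyruvate, and turns the carbon that is not needed at once into citrate, acetyl-CoA and then fatty acids, which are joined to glycerol and stored or exported as triglyceride. The pentose phosphate path and malic enzyme supply the NADPH that fatty acid synthesis uses. Insulin and glucose are known to raise transcription of many of these genes through the factors encoded by Srebf1 and Mlxipl, and the liver lobule is known to divide such tasks between hepatocytes near the portal vein and those near the central vein.

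Kept nuclei numbered 29829, of which 18856 lay in clusters named hepatocyte by marker genes such as Alb and Apob. Scoring each nucleus on the marker lists instead gave 11909 hepatocytes, of which 11687 were among the 18856. The label of many single nuclei thus depends on the method. In fed 2, 3372 hepatocytes lay in 1 cluster with a median of 1249 UMIs. There were 5408 and 4571 hepatocytes in fasted 1 and fasted 2, and 5070 and 3807 in fed 1 and fed 2, with 21008166, 19364610, 16858249 and 6779076 UMIs (captured transcripts) in the same order. The median hepatocyte held 1282 UMIs in fed 2, against 2550 to 3240 UMIs in the other libraries. Reads of ribosomal RNA tend to be counted on Gm42418, which had 4.61% of the UMIs of fed 2 and at most 1.01% elsewhere. In fed 1, 34.3% of hepatocytes fell in a cluster led by the acute-phase genes Saa1 and Saa2, which held under 0.2% of hepatocytes in each other library. Most hepatocyte clusters came mainly from 1 library, so clusters were not compared. Levels below are in CPM, that is, UMIs summed over the hepatocytes of a library and scaled to the same total in every library, and they are compared between libraries and not between genes. A sum of this kind does not tell fewer expressing nuclei from less RNA per nucleus.

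Promoters of 6 of the genes are shown first. They were picked from the genes with differences between fasted and fed libraries or between the ends of the lobule described below. Each sequence runs from 250 bases before to 50 bases after a transcription start, on the gene's own strand, and was taken from RefSeq for GRCm38.p6. Capitals mark matches to 2 motifs searched on both strands, the E-box CACGTG and the CCAAT box CCAAT, which reads ATTGG where it lies on the opposite strand.
Fasn: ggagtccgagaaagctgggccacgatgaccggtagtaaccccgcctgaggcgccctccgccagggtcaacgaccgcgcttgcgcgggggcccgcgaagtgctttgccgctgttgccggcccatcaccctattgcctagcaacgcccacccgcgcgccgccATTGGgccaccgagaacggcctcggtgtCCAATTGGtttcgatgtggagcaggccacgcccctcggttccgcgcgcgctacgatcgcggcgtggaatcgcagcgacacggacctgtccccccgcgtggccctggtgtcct
Acly: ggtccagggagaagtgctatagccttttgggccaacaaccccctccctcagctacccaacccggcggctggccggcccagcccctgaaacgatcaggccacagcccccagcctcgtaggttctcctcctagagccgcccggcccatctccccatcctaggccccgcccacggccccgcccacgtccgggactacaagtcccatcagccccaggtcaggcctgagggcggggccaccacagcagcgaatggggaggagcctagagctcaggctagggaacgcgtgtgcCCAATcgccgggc
Pklr: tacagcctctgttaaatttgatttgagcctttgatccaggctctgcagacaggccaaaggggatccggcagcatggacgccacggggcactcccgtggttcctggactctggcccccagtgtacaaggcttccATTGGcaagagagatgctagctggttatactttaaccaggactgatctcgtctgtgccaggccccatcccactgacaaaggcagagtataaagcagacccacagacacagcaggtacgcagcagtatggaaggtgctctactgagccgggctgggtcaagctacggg
Elovl6: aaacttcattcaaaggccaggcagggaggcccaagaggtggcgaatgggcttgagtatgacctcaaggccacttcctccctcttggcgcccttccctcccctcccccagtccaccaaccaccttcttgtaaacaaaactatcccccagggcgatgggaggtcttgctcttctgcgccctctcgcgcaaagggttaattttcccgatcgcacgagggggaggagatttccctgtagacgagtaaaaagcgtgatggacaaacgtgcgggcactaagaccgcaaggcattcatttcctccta
Khk: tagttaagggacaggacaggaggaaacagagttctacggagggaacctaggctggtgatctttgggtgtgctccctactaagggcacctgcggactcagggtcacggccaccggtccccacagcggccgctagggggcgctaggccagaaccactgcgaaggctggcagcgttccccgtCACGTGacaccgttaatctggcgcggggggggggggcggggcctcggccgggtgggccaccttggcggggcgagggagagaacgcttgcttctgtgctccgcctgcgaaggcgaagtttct
Lpin2: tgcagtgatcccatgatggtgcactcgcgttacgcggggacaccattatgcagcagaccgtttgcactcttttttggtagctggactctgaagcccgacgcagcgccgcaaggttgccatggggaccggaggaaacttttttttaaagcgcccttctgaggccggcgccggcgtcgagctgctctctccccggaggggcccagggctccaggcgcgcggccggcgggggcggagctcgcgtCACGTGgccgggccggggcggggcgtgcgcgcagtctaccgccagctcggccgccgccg
The Fasn window lies at chr11:120824498-120824797 on the minus strand, at the 5′ end of a gene that spans chr11:120805846-120824547. Acly (chr11:100476353-100528000, minus strand) has its window at chr11:100527951-100528250. For Pklr (chr3:89136142-89146784, plus strand) the window of the downstream of its RefSeq starts is shown, chr3:89136373-89136672. Elovl6 (chr3:129532355-129638495) has its window at chr3:129532136-129532435, Khk (chr5:30921431-30931248) at chr5:30921309-30921608, and Lpin2 (chr17:71182560-71249817), for the most upstream of its starts, at chr17:71183282-71183581, each on the plus strand. Gene spans are those of GENCODE M21 on mm10, and all of these genes are protein-coding.

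The Fasn window held 3 CCAAT matches, which begin 90, 62 and 59 bases before the start, the last 2 of them overlapping. The Pklr window shown held 1 such match, 117 bases before the start, and its upstream window held neither motif. In Acly the match lay 37 bases after the start. Khk and Lpin2 each held 1 E-box, 71 and 9 bases before the start, and Elovl6 held neither motif. Of the Lpin2 windows not shown, that at chr17:71204404-71204703 held 3 CCAAT matches and that at chr17:71183728-71184027 held neither motif. Acaca and Acsl3, lower in both fasted libraries below, are not shown. The Acaca window held neither motif, and the Acsl3 window held 1 CCAAT match, 15 bases before the start. Over the 31 members with a promoter in the table, 19 held a CCAAT match in at least 1 window, against 41.1% of 27025 genes. The E-box was found in 5 members (Elovl5, Khk, Lpin2, Pnpla5 and Slc25a1), against 8.09% of genes. A sterol response element, spelled TCACNCCAC, was found in 0 of the 31, against 1.44% of genes. A match is a description of letters in a window of 300 bases, and nothing about binding follows from it.

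In hepatocytes, Fasn, Acaca, Elovl6, Pklr and Acsl3 had lower levels in each fasted library than in either fed library, and DESeq2 called these 5 members while edgeR called none of them. Of the 36 members, 35 had enough counts to be tested, and Pnpla5, with 2 UMIs in fed 1 and 0 in the other libraries, did not. With edgeR's quasi-likelihood test on 2 libraries against 2 and Benjamini-Hochberg adjustment over 13993 genes, 0 members passed an adjusted p of 0.05. Only 1 gene of all tested did (0.00715%), Cyp4a14, a fatty acid hydroxylase. At an unadjusted p under 0.05 there were 8 members with lower and 2 with higher levels in fasted hepatocytes, where all genes gave 3.09% lower and 3.72% higher. DESeq2 called 5 members lower and 0 higher at an adjusted p of 0.05, against 0.619% and 0.481% of genes.

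Counted by the libraries alone, 12 members were lower in both fasted libraries than in either fed library, and 6 were higher in both, while 15.7% of all genes were lower in that way and 20.6% higher. The median log2 fold change (fasted over fed) of the tested members was -0.35, against -0.0061 over all genes, and it was 0.027 when fed 2 was left out. Summed over all members, the level was 6145 and 7831 CPM in fasted 1 and 2, against 7104 and 6204 CPM in fed 1 and 2, so the groups overlapped and the total did not separate them. The plot of member levels by library shows which genes separate.

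**Figure D1:**
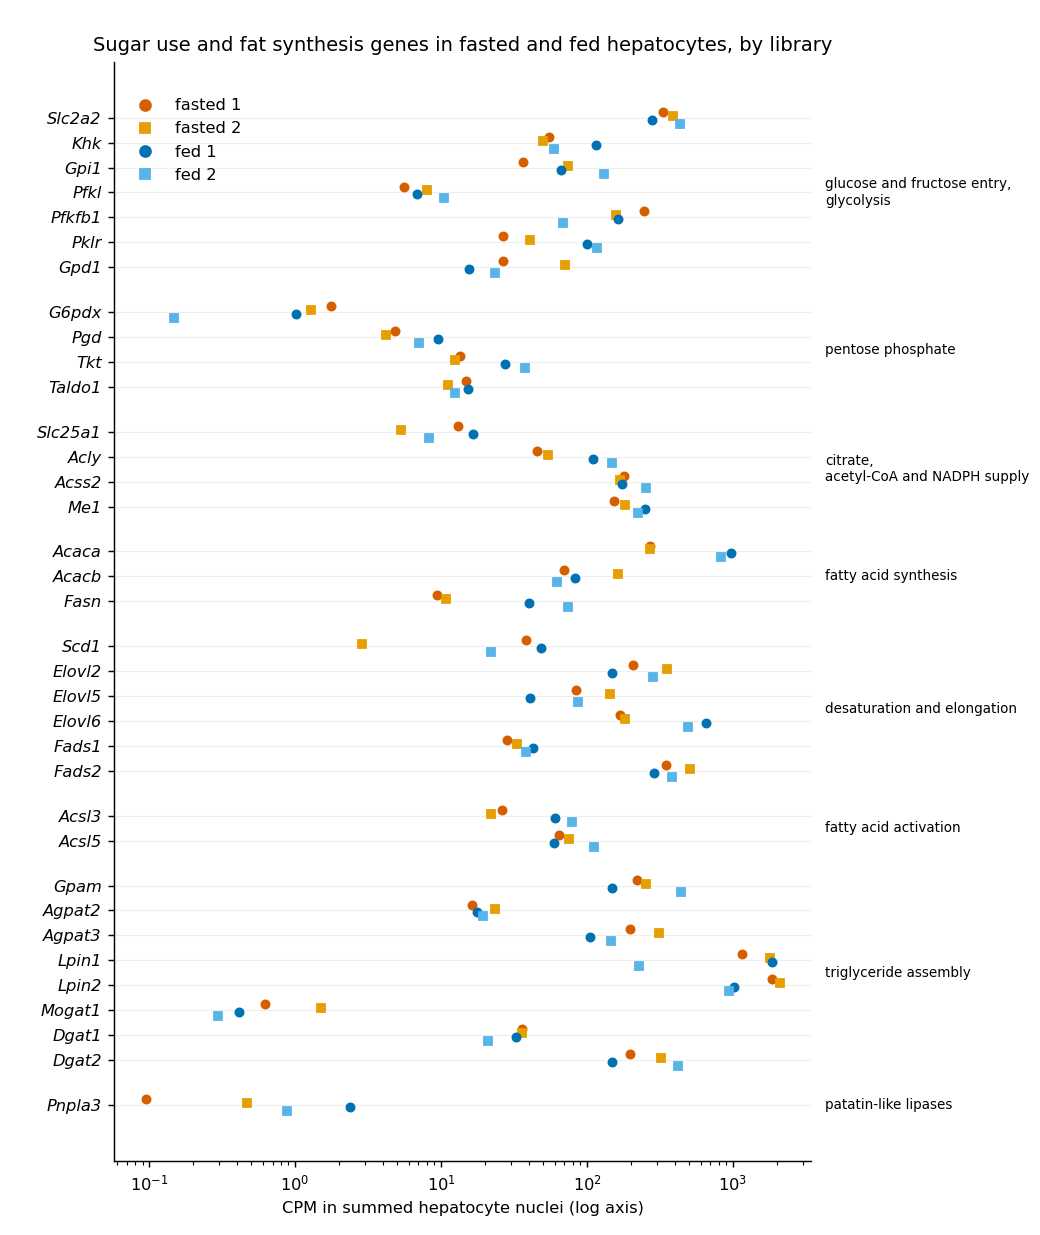
Level of each gene in summed hepatocytes, in CPM on a log axis, with 1 point per library (fasted 1 and 2 in orange tones, fed 1 and 2 in blue tones) and genes grouped by role. Fasn, Acaca, Elovl6, Pklr, Acsl3, Acly and Tkt have both fasted points left of both fed points, Lpin2, Agpat3 and Gpd1 have them to the right, and Pnpla5 is not drawn because 3 libraries had no count.

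Among the genes of fatty acid synthesis itself, Acaca encodes the cytosolic acetyl-CoA carboxylase that makes malonyl-CoA. It had 272 and 270.4 CPM in fasted 1 and 2, against 969 and 829.8 CPM in fed 1 and 2. The groups lay far apart and the replicates of each close together, with a log2 fold change of -1.76 ± 0.30 (SE, n = 2 libraries each) and an edgeR adjusted p of 0.422, the smallest among the members. The fatty acid synthase gene Fasn had 9.38 and 10.8 CPM in fasted livers, against 40.3 and 73.8 CPM in fed livers. Its log2 fold change was -2.55 ± 0.46 (edgeR adjusted p = 0.432), with both fasted libraries below both fed ones. Acacb, the carboxylase isoform tied to mitochondria and to the brake on fatty acid oxidation, did not follow this order. It had 70.1 and 163 CPM in fasted livers, against 83.2 and 62.4 CPM in fed livers, and the groups overlapped.

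The supply of acetyl-CoA and NADPH gave lower levels in the fasted libraries for Acly and Me1. Acly, ATP citrate lyase, splits citrate into the acetyl-CoA used for fat. It had 45.5 and 54.4 CPM in fasted livers, against 110.3 and 148 CPM in fed livers, a log2 fold change of -1.41 ± 0.35 (edgeR adjusted p = 0.533). Me1, malic enzyme, had 152 and 181 CPM in fasted livers, against 251 and 222 CPM in fed livers, with a log2 fold change of -0.53 ± 0.30 (edgeR adjusted p = 0.811). For both genes each fasted library lay below each fed library, with a wider gap for Acly. The citrate carrier Slc25a1 (log2 fold change -0.47) and the acetyl-CoA synthetase Acss2 (-0.35) overlapped between groups.

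In elongation and desaturation, Elovl6 stood apart from its relatives. Elovl6 encodes the elongase that extends palmitate, the product of Fasn. It had 168 and 183 CPM in fasted livers, against 656 and 489 CPM in fed livers, a log2 fold change of -1.73 ± 0.31 (edgeR adjusted p = 0.424). Both fasted libraries were below both fed ones. The elongases that act on polyunsaturated chains had log2 fold changes above 0, 0.78 for Elovl5 and 0.34 for Elovl2, with overlapping groups. Elovl5 had 84.3 and 143 CPM in fasted livers, against 40.6 and 87.3 CPM in fed livers. The polyunsaturated desaturases Fads1 and Fads2 had -0.42 and 0.31, and of these only Fads1 kept the groups apart. Scd1, the stearoyl-CoA desaturase, was uneven within groups. It had 37.9 and 2.89 CPM in fasted 1 and 2, against 48.1 and 21.8 CPM in fed 1 and 2, and its log2 fold change of -0.82 ± 1.02 lay within that spread.

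Among the genes of sugar entry and glycolysis, Pklr, the liver pyruvate kinase that closes glycolysis, had 26.5 and 40.6 CPM in fasted livers, against 99.6 and 117 CPM in fed livers. Its log2 fold change was -1.72 ± 0.37 (edgeR adjusted p = 0.504), with the groups apart. Khk, ketohexokinase, takes the first step of fructose use. It had 54.8 and 50.1 CPM in fasted livers, against 115 and 59.3 CPM in fed livers, a log2 fold change of -0.74 ± 0.37 (edgeR adjusted p = 0.781). The fasted libraries were below both fed libraries, but fed 2 was close to them. Gpd1, which makes glycerol phosphate from a glycolytic intermediate, ran the other way, with 26.7 and 71.2 CPM in fasted livers, against 15.5 and 23.5 CPM in fed livers. Its log2 fold change was 1.30 ± 0.57 (edgeR adjusted p = 0.754), and fasted 1 lay close to fed 2. The glucose transporter gene Slc2a2 (log2 fold change -0.035), the isomerase Gpi1 (-0.88), the phosphofructokinase Pfkl (-0.38) and Pfkfb1 (0.78), whose enzyme sets the level of a glycolytic activator, overlapped between groups.

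The pentose phosphate genes had low counts. Tkt, transketolase, had 13.4 and 12.5 CPM in fasted livers, against 27.5 and 37.6 CPM in fed livers, with a log2 fold change of -1.37 ± 0.38 (edgeR adjusted p = 0.570). Pgd, an NADPH-forming dehydrogenase, had 4.86 and 4.18 CPM in fasted livers, against 9.55 and 7.08 CPM in fed livers, with a log2 fold change of -0.91 ± 0.46 (edgeR adjusted p = 0.782). In both genes the fasted libraries lay below the fed ones. Taldo1, transaldolase, had a log2 fold change of -0.14 with overlapping groups. G6pdx, the entry enzyme of the path, ran the other way, with 1.76 and 1.29 CPM in fasted livers, against 1.01 and 0.148 CPM in fed livers. Its log2 fold change was 1.24, with the groups apart. These values rest on 37 and 25 UMIs in fasted hepatocytes, against 17 and 1 UMIs in fed hepatocytes, too few for a firm level.

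Of the fatty acid activation genes, Acsl3 had 26.3 and 22.2 CPM in fasted livers, against 60.6 and 78.8 CPM in fed livers. The log2 fold change was -1.57 ± 0.35 (edgeR adjusted p = 0.506) and the groups lay apart, while Acsl5, another acyl-CoA synthetase, had -0.34 and overlapping groups.

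In triglyceride assembly 6 of 8 genes had a log2 fold change above 0, as 49.5% of all genes did, and for 4 of the 8 both fasted libraries lay above both fed ones, as they did for 20.6% of all genes. None of the 8 was called by edgeR or DESeq2. Lpin2, a phosphatidate phosphatase, had 1857 and 2085 CPM in fasted livers, against 1016 and 938 CPM in fed livers. Its log2 fold change was 0.98 ± 0.31 (edgeR adjusted p = 0.631), and the fasted libraries lay well above the fed ones. Agpat3, an acyltransferase of the preceding step, had 196 and 312 CPM in fasted livers, against 105 and 146 CPM in fed livers, a log2 fold change of 0.97 ± 0.40 (edgeR adjusted p = 0.731). Dgat1, an acyltransferase of the last step, was apart in this direction as well (log2 fold change 0.40). So was Mogat1, on 13 and 29 UMIs in fasted hepatocytes against 7 and 2 UMIs in fed hepatocytes. Lpin1, the close relative of Lpin2, had 1160.2 and 1802 CPM in fasted 1 and 2, against 1843 and 228 CPM in fed 1 and 2. The fed libraries thus differed more from each other than from the fasted ones, and the log2 fold change of 0.55 ± 0.84 was 2.60 without fed 1 and -0.28 without fed 2. Gpam, which starts glycerolipid synthesis (log2 fold change -0.38), Agpat2 (0.077) and Dgat2 (-0.20) overlapped. Pnpla3, a lipase-like gene of the lipid droplet, had 2 and 9 UMIs in fasted hepatocytes, against 40 and 6 UMIs in fed hepatocytes, which equals 0.0952 and 0.465 CPM against 2.37 and 0.885 CPM (edgeR log2 fold change -2.56 ± 1.00, adjusted p = 0.715).

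The edgeR calls depended on single fed libraries and on the low-count filter. With all libraries and no filter, edgeR called 5 members (Fasn, Acaca, Elovl6, Pklr and Acsl3), all lower, among 272 genes of all tested. Calls over all genes, and not only those of members, rose when either fed library was left out. Each fit without a fed library assumes that the lone fed library varies like the fasted ones, so its member calls are not listed. When 1 library was left out, log2 fold changes ran from -2.11 to -1.44 for Pklr, from -1.81 to -1.29 for Acsl3 and from -1.67 to -1.11 for Acly. Over all 12 alternatives the log2 fold change stayed between -2.97 and -1.96 for Fasn, between -1.86 and -1.68 for Acaca, and between -1.87 and -1.58 for Elovl6. The marker lists of other cell types summed to at most 72.5 CPM each in the hepatocytes of any library, apart from the cholangiocyte list, at 1082 and 985 CPM in fasted livers, against 1118 and 851 CPM in fed livers, and the hepatocyte list itself summed to 23998 and 18719 CPM in fasted livers, against 18640 and 10904 CPM in fed livers. Their part in the results was not tested.

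Further genes of the same pathways, 75 in number and 65 of them tested, also gave 0 edgeR calls. At an unadjusted edgeR p under 0.05, 6 were lower and 5 higher, against 3.09% and 3.72% of all genes. DESeq2 called 5 lower and 1 higher, against 0.619% and 0.481% of genes. Those with the smallest p-values include both known transcription factors. Srebf1 had 15.9 and 15.8 CPM in fasted livers, against 99.5 and 141 CPM in fed livers (log2 fold change -2.97 ± 0.37, edgeR adjusted p = 0.221). Mlxipl had 445 and 479 CPM in fasted livers, against 1066 and 1430.1 CPM in fed livers (log2 fold change -1.48 ± 0.34, edgeR adjusted p = 0.532). In both genes the fasted libraries were below the fed ones with a clear gap. Thrsp, a lipogenic co-factor gene, had a log2 fold change of -3.63 (edgeR adjusted p = 0.152), while Insig2, which holds back the Srebf1 pathway, had 1.67 (0.541) and Acot1, an acyl-CoA thioesterase, 2.05 (0.558). For each of these 5 genes the groups did not overlap.

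**Figure D2:**
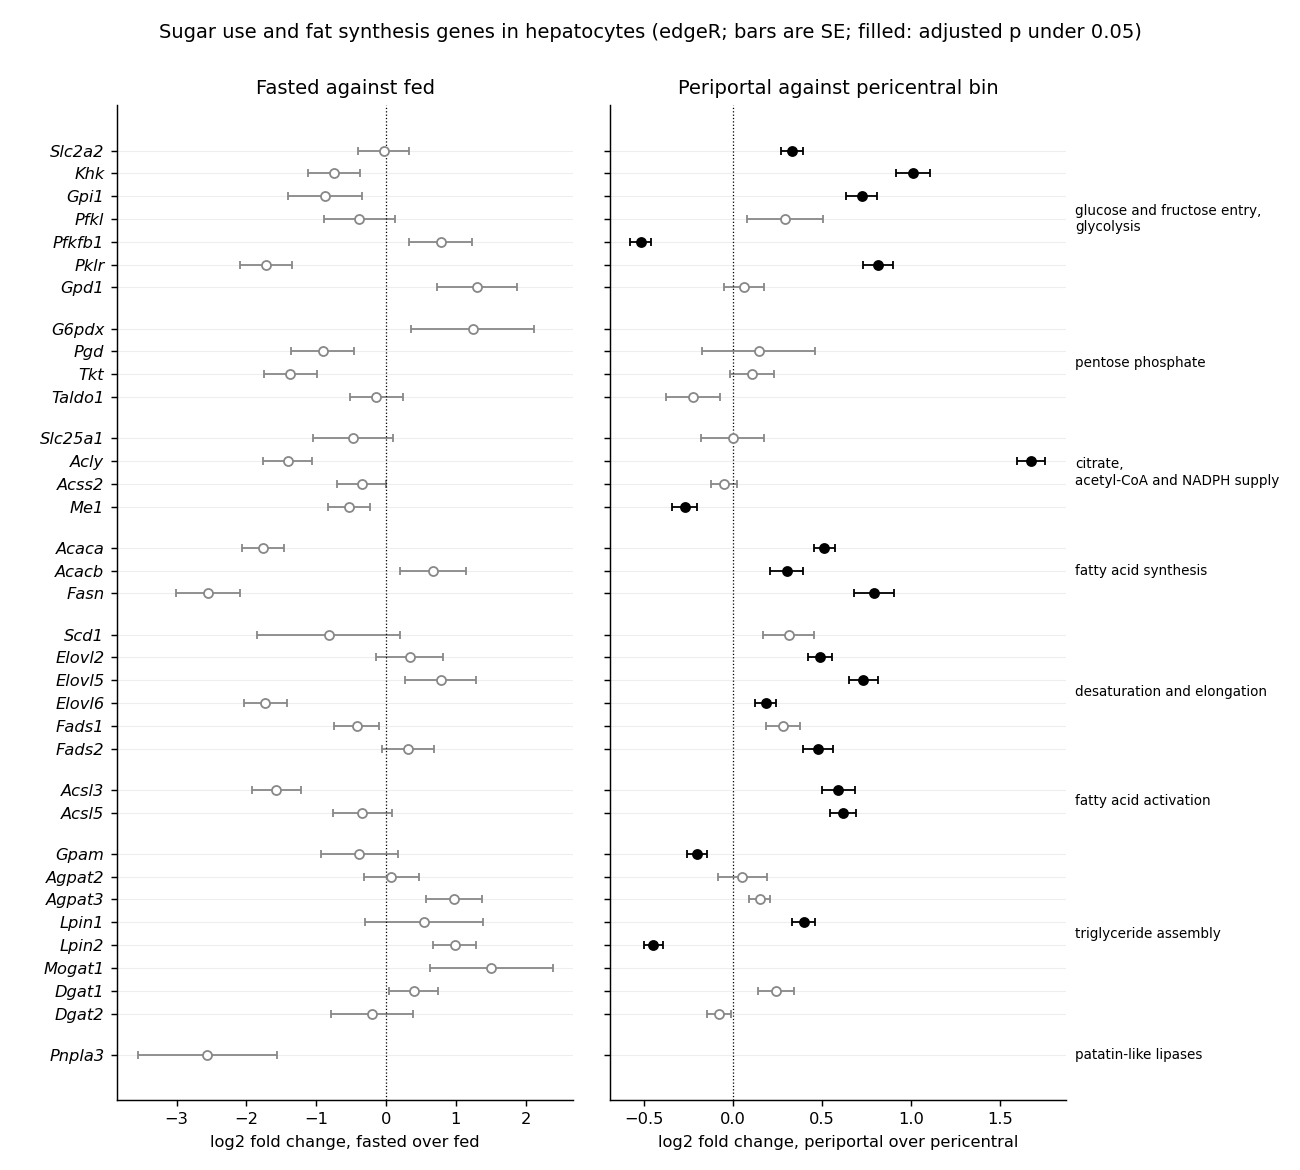
Log2 fold change of each tested gene with its SE from edgeR, fasted over fed on the left (n = 2 libraries each) and periportal over pericentral bin on the right (n = 4 libraries, each with both bins). Filled points have an adjusted p under 0.05: none on the left, 15 to the right of 0 and 4 to the left of it in the right panel.

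Hepatocytes were then ordered by their place between the portal and the central vein, with a score built from 12 periportal and 11 pericentral landmark genes, none of them a member. Counts were thinned to 1500 UMIs per nucleus for the score, which left 4818 and 4234 fasted and 4342 and 1571 fed hepatocytes, and 2236 hepatocytes of fed 2 were too shallow. Each library was split by the score into 3 bins of equal size, and the unthinned counts of its periportal and its pericentral bin were summed and compared in edgeR with library as a block. Nuclei of the periportal bin were shallower in each library, with medians of 2194 to 3154 UMIs against 2495 to 3745 UMIs in the pericentral bin. The part of that difference in the results was not tested.

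Most of the members with a position difference were higher on the periportal side. They included the 3 members of fatty acid synthesis, of which Acacb was called by edgeR and not by DESeq2, and the 2 members of fatty acid activation. Of 32 members tested, 15 were called higher in the periportal bin, where the share over all 12313 genes was 7.91%, and 4 were called higher in the pericentral bin, where it was 8.15% (edgeR adjusted p under 0.05). DESeq2 called 13 and 2, against 5.4% and 5.56% of genes. The same direction in all 4 libraries was seen in 18 members on the periportal side and 4 on the pericentral side, against 16.1% and 15.7% of genes. The median log2 fold change (periportal over pericentral) was 0.29, against 0.0053 over all genes. Pnpla3, Pnpla5, G6pdx and Mogat1 had too few counts. By role, 4 of 7 genes of sugar entry and glycolysis were called periportal and 1 pericentral, 3 of 3 of fatty acid synthesis, 4 of 6 of desaturation and elongation and 2 of 2 of activation were called periportal, the supply of acetyl-CoA and NADPH gave 1 call on each side among 4, and triglyceride assembly gave 1 periportal and 2 pericentral calls among 7 tested. Of the 3 pentose phosphate genes tested, 0 were called by edgeR or DESeq2, and 0 had an unadjusted p under 0.05, which 13% of genes reached on the periportal and 12.7% on the pericentral side.

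Acly had the steepest slope of the members. It had 69.8, 84.6, 159 and 234 CPM in the periportal bin of fasted 1, fasted 2, fed 1 and fed 2, against 24.7, 24.5, 51.2 and 66.1 CPM in the pericentral bin. Each library thus had over 2 times as much periportally, with a log2 fold change of 1.67 ± 0.08 (edgeR adjusted p = 1.43e-11). Khk had 79.0, 69.8, 139 and 68.0 CPM periportally, against 36.7, 31.3, 67.5 and 51.0 CPM pericentrally, in the same order of libraries. The difference was smallest in fed 2, and the log2 fold change was 1.01 ± 0.09 (edgeR adjusted p = 1.64e-07).

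Pklr had 35.6, 50.1, 114 and 147 CPM periportally, against 20.2, 28.1, 70.2 and 74.2 CPM pericentrally. Its log2 fold change was 0.82 ± 0.08 (edgeR adjusted p = 5.64e-07), with like ratios in all 4 libraries. Fasn had 12.1, 13.5, 47.3 and 101 CPM periportally, against 7.26, 7.76, 27.3 and 56.6 CPM pericentrally. The log2 fold change of Fasn was 0.79 ± 0.11 (edgeR adjusted p = 3.59e-05), so its slope was present at the low fasted level as well as at the fed level. Acaca had 324, 323, 1146 and 916 CPM periportally, against 225, 220.3, 721 and 751 CPM pericentrally. Its log2 fold change was 0.51 ± 0.06 (edgeR adjusted p = 3.78e-06), with the smallest ratio in fed 2.

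Elovl5 had 106, 194, 44.1 and 125 CPM periportally, against 67.0, 105, 33.3 and 65.4 CPM pericentrally, a log2 fold change of 0.73 ± 0.08 (edgeR adjusted p = 2.07e-06). Acsl5 had 81.3, 92.9, 68.6 and 125 CPM periportally, against 50.8, 59.2, 47.2 and 84.3 CPM pericentrally, a log2 fold change of 0.62 ± 0.07 (edgeR adjusted p = 4.38e-06). Both were higher on the periportal side in each library, while for both genes the fasted and fed groups overlapped in summed hepatocytes.

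The pericentral side held Lpin2 and Pfkfb1. Lpin2 had 1573, 1721, 922 and 789 CPM periportally, against 2069, 2411, 1173 and 1175 CPM pericentrally, a log2 fold change of -0.45 ± 0.05 (edgeR adjusted p = 4.46e-06). Pfkfb1 had 207, 127, 138 and 53.1 CPM periportally, against 285, 179.7, 202 and 81.8 CPM pericentrally, a log2 fold change of -0.52 ± 0.06 (edgeR adjusted p = 2.57e-06). In each library the pericentral bin was the higher one for both genes. Lpin1, the relative of Lpin2, was called in the opposite direction.

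**Figure D3:**
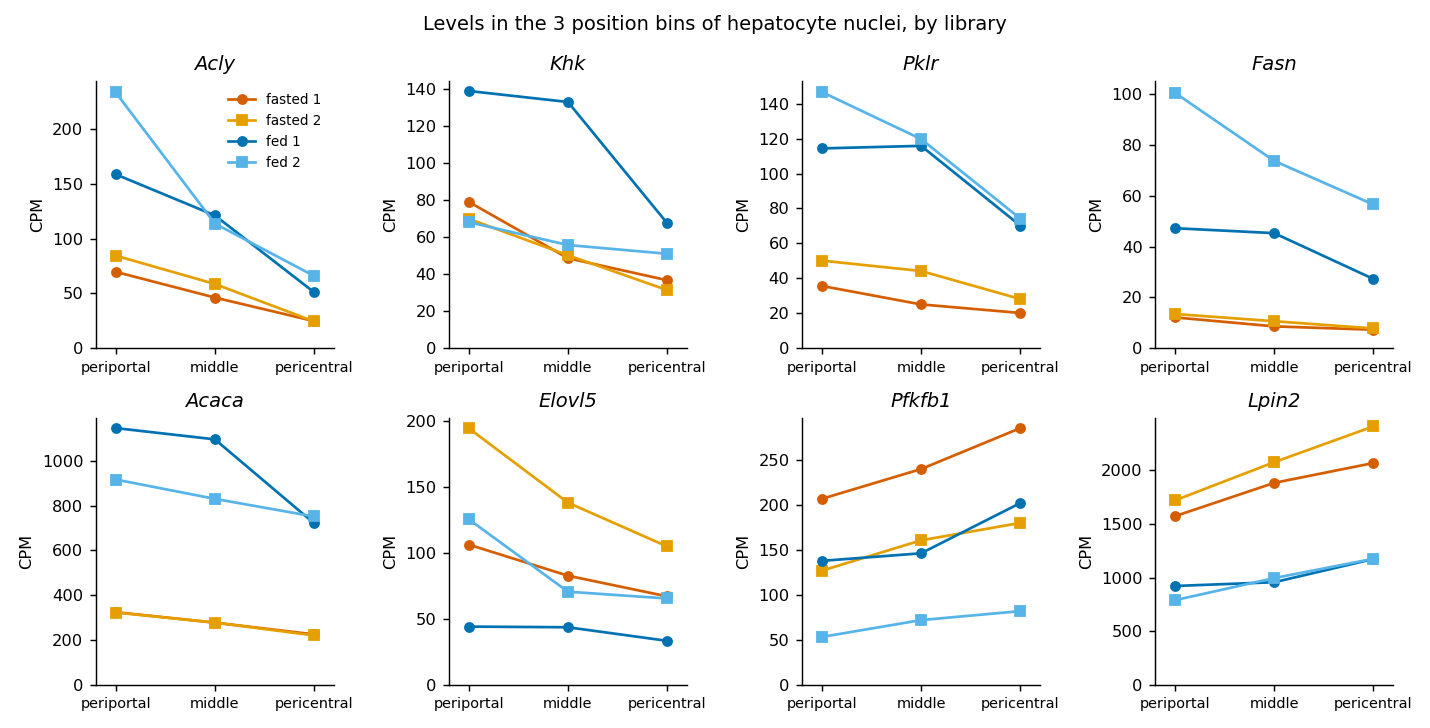
CPM of 8 genes in the periportal, middle and pericentral bin of hepatocytes, with 1 line per library. Acly, Khk, Pklr, Fasn, Acaca and Elovl5 are higher in the periportal than in the pericentral bin in all 4 libraries, and Pfkfb1 and Lpin2 are lower.

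For the other called members the log2 ratio of periportal to pericentral level (CPM + 0.5) is given for fasted 1, fasted 2, fed 1 and fed 2 in that order. Gpi1 had 0.56, 0.56, 1.00 and 0.77, and Slc2a2 had 0.40, 0.49, 0.25 and 0.15. Acsl3 had 0.51, 0.71, 0.62 and 0.48. These genes of sugar entry, glycolysis and activation were periportal in every library. Elovl2 had 0.40, 0.42, 0.39 and 0.84, and Fads2 had 0.46, 0.22, 0.45 and 0.89. Elovl6 had the weakest called periportal difference, with 0.26, 0.35, 0.089 and 0.037. Lpin1 had 0.21, 0.43, 0.37 and 0.71. All 4 genes thus kept 1 direction, although the values of Elovl6 in the fed libraries were near 0. Acacb had -0.11, 0.37, 0.52 and 0.54, so its call (edgeR adjusted p = 0.0415) came with 1 library of the opposite sign. Me1 had -0.31, -0.069, -0.20 and -0.62, and Gpam had -0.28, -0.23, -0.25 and -0.031. Both were lower on the periportal side in every library, by the least in fasted 2 for Me1 and in fed 2 for Gpam. DESeq2 did not call Elovl6, Acacb, Me1 or Gpam.

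Of the remaining tested members, Fads1 had a log2 fold change of 0.28 (edgeR adjusted p = 0.0535), Agpat3 0.15, Dgat1 0.24, Scd1 0.31, Pfkl 0.29, Tkt 0.11, Pgd 0.14, Gpd1 0.062 and Agpat2 0.054, while Taldo1 had -0.22, Dgat2 -0.077, Acss2 -0.048 and Slc25a1 -0.0017. None of these passed in edgeR over all genes. Fads1, Agpat3, Pfkl and Tkt had ratios above 0 in all 4 libraries. Some of these were near 0, with 3e-04 for Agpat3 and 0.012 for Pfkl in fed 1, and 0.0061 and 0.031 for Tkt in fed 1 and fed 2.

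**Figure D4:**
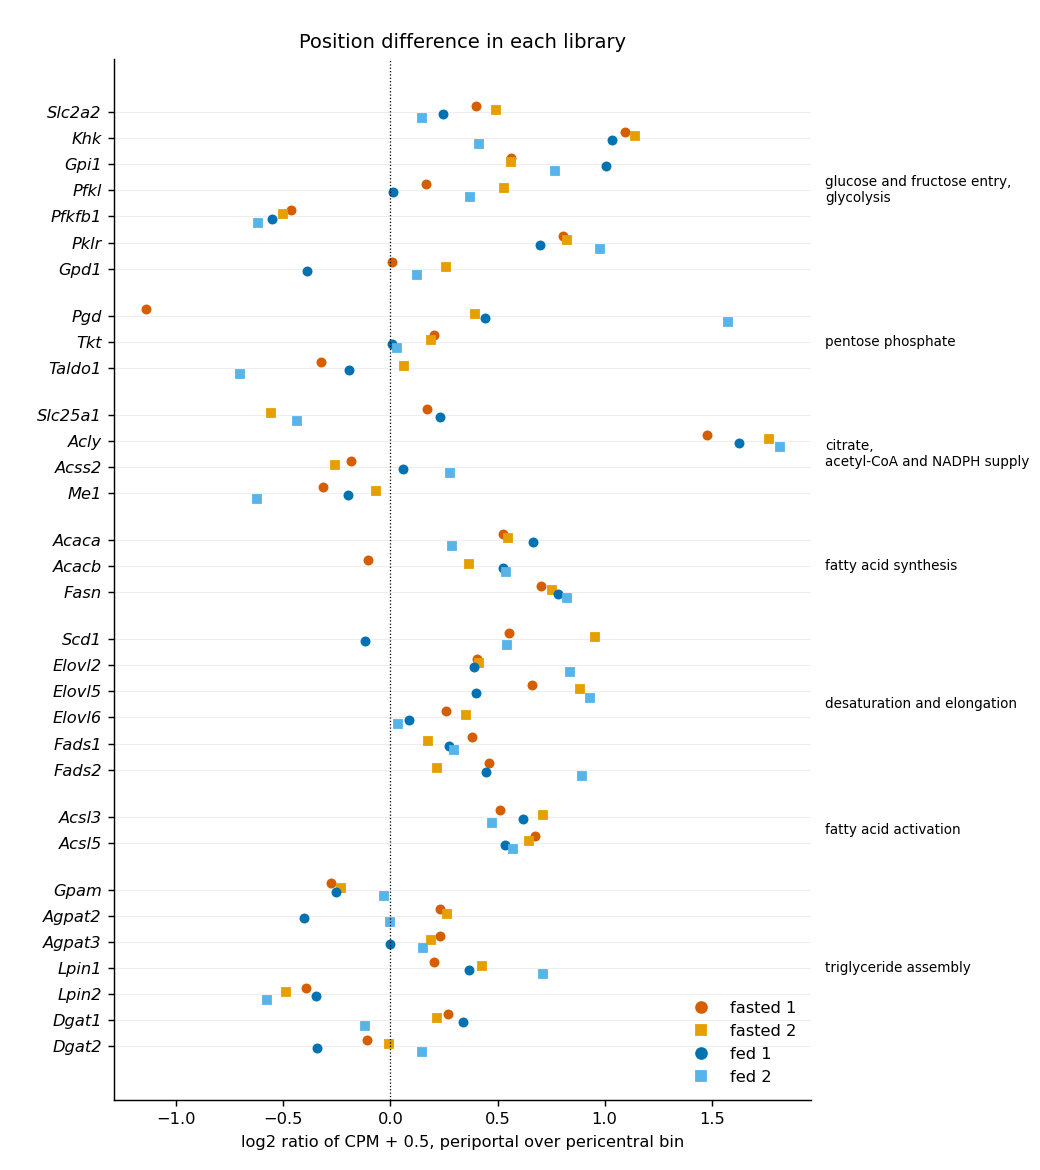
Log2 ratio of periportal over pericentral level (CPM + 0.5) for each of the 32 tested genes, with 1 point per library (fasted in orange tones, fed in blue tones). Acly lies between 1.48 and 1.82 in all 4 libraries, Lpin2, Pfkfb1, Me1 and Gpam lie left of 0, and Acss2 and Agpat2 have fasted and fed points on opposite sides of 0.

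Other pathway genes, 63 of them tested, gave 15 periportal and 9 pericentral calls in edgeR, against 7.91% and 8.15% of all genes. Those called periportal included Tkfc, a gene of fructose use (log2 fold change 1.02, edgeR adjusted p = 4.88e-09), with Eno1, Gapdh, Tpi1, Gckr, Mdh1, Gpat3, Plin2, Cidec, Srebf1, Srebf2, Insig1, Thrsp and Mid1ip1. The pericentral ones included Pdk4 (log2 fold change -3.41, edgeR adjusted p = 8.30e-05), the kinase that shuts pyruvate out of the citrate cycle, with Mlxipl (-0.32), Sord, Hacd3, Acot1, Cs, Pfkfb3 and Elovl3. In fasted 1, fasted 2, fed 1 and fed 2, Pdk4 had 2, 3, 0 and 1 UMIs periportally. Pericentrally it had 17, 49, 8 and 12 UMIs, so the size of its fold change is uncertain. Khk and Tkfc, both enzymes of fructose use, were thus called periportal, each with the same sign in 4 libraries. Sord, chosen in the same group of sugar and fructose genes as Tkfc, was called pericentral, so that group did not share 1 direction.

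The position and the feeding comparisons use the same libraries, so their values are set side by side with no test. The members lower in both fasted libraries and called periportal were Fasn, Acaca, Acly, Pklr, Khk, Acsl3 and Elovl6, 7 of 15 periportal calls. Of the 13 members called on neither side, 3 were lower in both fasted libraries, as were 15.7% of all genes. The remaining 8 periportal genes overlapped between fasted and fed. Lpin2 was called pericentral and was higher in both fasted libraries. Me1, called pericentral by edgeR but not by DESeq2, was lower in both.

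Whether the position difference itself depends on feeding was tested as an interaction, the periportal minus pericentral difference in fasted livers minus that in fed livers. Over 12313 genes edgeR called 16 (0.13%), of which 0 were members, and DESeq2 called 0. At an unadjusted p under 0.05, 3 members had a positive and 4 a negative interaction, against 3% and 3.82% of genes. The smallest member p was that of Acss2, with an interaction of -0.37 ± 0.11 (edgeR adjusted p = 0.309). For Acly (-0.063 ± 0.16), Fasn (-0.047 ± 0.25), Acaca (0.043 ± 0.11), Pklr (0.024 ± 0.16) and Lpin2 (0.010 ± 0.10) the interaction lay within its SE. A p above the threshold does not show that the slopes are alike. Without fed 1, edgeR called Acss2 and Fads2 among 179 genes, and without fed 2 it called 179 genes and 0 members.

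Within the periportal bin alone, fasted against fed gave edgeR log2 fold changes of -1.73 ± 0.33 for Acaca, -2.60 ± 0.50 for Fasn, -1.66 ± 0.32 for Elovl6 and -1.67 ± 0.38 for Pklr. Within the pericentral bin they were -1.79 ± 0.31, -2.54 ± 0.52, -1.90 ± 0.30 and -1.64 ± 0.36. At each end the fasted libraries of these 4 genes lay below the fed ones, as did those of 14.6% of all genes in the periportal and 13.2% in the pericentral bin. In edgeR 0 members passed at either end, where 1 gene of all tested passed (0.00877% and 0.00841%). At an unadjusted p under 0.05 the periportal bin gave 7 members lower and 3 higher, against 3.18% and 3.6% of genes, and the pericentral bin 8 lower and 2 higher, against 2.23% and 3.41% of genes. DESeq2 called 4 members lower in the periportal bin, against 0.629% of genes, and 3 in the pericentral bin, against 0.345%. The edgeR calls, over all genes as well as among members, changed when 1 fed library was left out. Without fed 1 they included both lower and higher members at each end. Leaving out 1 library gave a median log2 fold change of members from -0.46 to -0.060 in the periportal bin, against -0.37 with all libraries. In the pericentral bin it ran from -0.40 to -0.015, against -0.28.

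Outside hepatocytes the same genes were measured in endothelial cells, Kupffer cells or macrophages, stellate cells, cholangiocytes and B or plasma cells, each with at least 20 nuclei in every library. In these 5 types the 12 hepatocyte markers, which such cells should lack, summed to 29.99% to 97.6% of their level in hepatocytes of the same library, and the part of hepatocyte RNA in the results below was not tested. The median member was at 39.7% to 92.7% of its hepatocyte level, except in cholangiocytes of fed 2, where it was at 0% on 39 UMIs over all members.

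Of the 36 members, 32 were tested in endothelial cells, 33 in Kupffer cells, 28 in stellate cells, 16 in cholangiocytes and 18 in B or plasma cells. Fasn, Pklr, Acsl3, Khk and Tkt were tested neither in cholangiocytes nor in B or plasma cells. With edgeR, 0 of the tested members were called between fasted and fed in any of the 5 types. Of all genes tested, 0 to 3 were called in each (0% in B or plasma cells, 0.0122% in Kupffer cells, 0.0702% in cholangiocytes, 0.0294% in endothelial cells and 0.0396% in stellate cells). At an unadjusted p under 0.05, endothelial cells had 5 members lower and 0 higher, against 1.54% and 2.18% of genes. Kupffer cells had 4 lower and 1 higher (0.807% and 2.07% of genes), and stellate cells 3 lower and 0 higher (1.06% and 2.35%). B or plasma cells had 1 lower and 0 higher (1.23% and 2.25%), and cholangiocytes 0 lower and 3 higher (1.05% and 4.07%). DESeq2 called Elovl6 and Acaca lower in endothelial cells, against 0.183% of genes, and 0 members in the other types. Acaca had 180.4 and 198 CPM in endothelial nuclei of fasted livers, against 613 and 556 CPM in those of fed livers, below its level in hepatocytes of each library. In the same nuclei Elovl6 had 81.7 and 104 CPM in fasted livers, against 355 and 312 CPM in fed livers. Both genes thus had the same order of groups as in hepatocytes. Cyp4a14, the gene called higher in fasted hepatocytes, was called higher in 4 of the 5 types as well.

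A few members were at higher levels outside hepatocytes than within them in all 4 libraries. Clustering used the 2000 most variable genes of the same nuclei, which may include these members, so the values are given without a test. Scd1 had 129.8 and 11.7 CPM in Kupffer cells of fasted 1 and 2, against 187 and 28.9 CPM in those of fed 1 and 2, where hepatocytes had 37.9, 2.89, 48.1 and 21.8 CPM. The Kupffer cell values rest on 118, 8, 122 and 3 UMIs. Scd1 was above its hepatocyte level in endothelial and stellate cells as well, on 9 and 2 UMIs in fed 2. In Kupffer cells G6pdx had 17.6 and 13.2 CPM in fasted livers, against 21.5 and 9.64 CPM in fed livers, on 16, 9, 14 and 1 UMIs, where hepatocytes had at most 1.76 CPM. Pgd had 44.0 and 22.0 CPM there in fasted livers, against 35.3 and 9.64 CPM in fed livers, on 40, 15, 23 and 1 UMIs. Taldo1 and Tkt were likewise above hepatocytes in Kupffer cells, on 2 and 4 UMIs in fed 2 and by little for Tkt there. The 4 pentose phosphate members were thus above their hepatocyte level in Kupffer cells, with 1 to 4 UMIs each in fed 2. This was not particular to Kupffer cells, since Pgd was above its hepatocyte level in endothelial cells and Taldo1 in stellate cells, on 4 and 3 UMIs in fed 2.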

How the data were processed

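Single-nucleus RNA was sequenced from 4 mouse liver libraries with 10x chemistry 3.1. Per the submitters' processing notes, Cell Ranger 6.0 and the mm10 genome were used. The values the authors deposited are raw counts of transcripts tagged with unique molecular identifiers (UMIs). Total counts were 30955600 and 24139311 in fasted 1 and 2, and 22924339 and 8078755 in fed 1 and 2. Of the stored entries, 13.2% to 17.0% were 0, for a reason not given in the sources used here. Pairs of libraries shared 12 to 42 barcodes.

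Barcodes were kept that had 500 or more genes and no more than 5% of UMIs from mitochondrial genes. Scrublet's automatic threshold marked 1778 barcodes in fasted 1, 1 each in fasted 2 and fed 1 and 0 in fed 2, and was not used. The barcodes with the highest doublet scores were removed instead, at 0.8% per 1000 barcodes. Clusters came from scanpy 1.11.5 and leidenalg 0.10.2 (resolution 1) and were named from fixed markers, which gave hepatocyte-like and other classes, called here without the suffix.

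Raw counts were summed per library and compared in edgeR 4.0.16 (TMM, filterByExpr, robust quasi-likelihood test) with Benjamini-Hochberg adjustment over all genes tested and a threshold of 0.05. DESeq2 1.42.0 was the other tool, and R was 4.3.3. The SE of a log2 fold change is its size divided by the square root of edgeR's F. The 3 position bins were made within each library. The scripts were tested on simulated data.

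The 36 members, the further pathway genes, the landmarks and the tests were chosen with earlier results of these data known. Values per library are given for the 14 members with the smallest p in fasted against fed, the 8 with the smallest in position and every member called. Of the further genes, those called, or otherwise the 6 with the smallest p, are named. Some of these are not reported here. Scd1, Acacb, Lpin1, Gpi1 and others outside that rule are added for their roles. Alternatives changed the scaling, the low-count filter, the tool, the replicate block, each library, the reading of stored zeros, doublet removal, hepatocyte selection, landmarks, thinning and bin size. Leaving out the acute-phase cluster was added after the data were seen.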

Additional observations from a re-analysis of the deposited data

Results flagged for a closer look

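Acss2, a cytosolic acetyl-CoA synthetase, had a position difference of opposite sign in the feeding groups. Its log2 ratio of periportal to pericentral level was -0.18 and -0.26 in fasted 1 and 2, against 0.059 and 0.28 in fed 1 and 2. The interaction was -0.37 (edgeR unadjusted p = 0.00314, adjusted p = 0.309), and it did not pass over all genes. Agpat2, an acyltransferase of glycerolipid synthesis, had ratios of 0.23 and 0.27 in fasted 1 and 2, against -0.40 and -0.0036 in fed 1 and 2. Its interaction was 0.54 (edgeR unadjusted p = 0.0539, adjusted p = 0.743) and did not pass either, with fed 2 close to 0.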

How the results depend on the processing

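Depth limits Pnpla3, Pnpla5, G6pdx, Mogat1 and Pgd, and the position results of fed 2. Most position calls depended little on the processing, with 15 to 21 members called over 12 alternatives. Under the reported settings and every alternative, 15 genes were called (Acaca, Acly, Acsl3, Acsl5, Elovl2, Elovl5, Fads2, Fasn, Gpi1, Khk, Lpin1, Lpin2, Pfkfb1, Pklr and Slc2a2). Acacb, Elovl6, Gpam and Me1 were called under the reported settings but not with DESeq2. Each of them was also lost when at least 1 of the libraries was left out. The calls between fasted and fed depended on the tool, the filter and the libraries, and the cause was not tested.

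In hepatocytes, fasted against fed, the number of genes called was 1, against 0 with RLE scaling, 0 with stored zeros counted as 1, 272 without a low-count filter, 151 with DESeq2 and 3 to 330 when 1 library was left out. Members called were 0, against 5 without the filter, 5 with DESeq2 and 0 to 7 when 1 library was left out. For the interaction of position and feeding, 16 genes were called, against 73 without the filter, 0 with DESeq2, 29 with bins pooled over libraries, 73 with thinning to 1000 UMIs, 54 and 31 with odd- and even-numbered landmarks, and 1 to 179 when 1 library was left out. Members called were 0, against 0 to 2. In the periportal bin DESeq2 called 110 genes and 4 members, and leaving out 1 library gave 22 to 587 genes and 0 to 10 members. In the pericentral bin DESeq2 called 82 genes and 3 members, and leaving out 1 library gave 5 to 157 genes and 0 to 4 members. In the other cell types together 10 genes were called, against 103 genes and 1 member without the filter, 38 genes and 2 members with DESeq2, and 61 to 202 genes and 0 to 4 members when 1 library was left out.

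Replicate numbers carry no stated batch. Deviations of same-numbered libraries from their group means correlated at 0.425 over 13993 genes, and 2 pairs are too few to take the numbers as pairing. With the number as a replicate block, 28 genes and 0 members were called in hepatocytes, 231 genes and 7 members in the periportal bin, 167 genes and 4 members in the pericentral bin, and 387 genes and 6 members in the other cell types. With the block Slc2a2 had a log2 fold change of 0.0081, and without the low-count filter 0.025, against -0.035.

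Log2 fold changes, fasted over fed, that changed sign when 1 library was left out ran from -0.80 to 0.84 for Dgat2, -0.37 to 0.40 for Slc2a2, -0.12 to 1.16 for Acacb, -3.58 to 0.067 for Scd1, -0.15 to 0.97 for Elovl2, -0.038 to 0.60 for Fads2, -1.22 to 0.039 for Slc25a1, -0.25 to 0.33 for Agpat2, -0.33 to 0.017 for Taldo1, -0.995 to 0.70 for Gpam, -0.66 to 0.027 for Acss2, -0.28 to 2.60 for Lpin1, -0.73 to 0.029 for Pfkl and -0.77 to 0.26 for Acsl5. The members' median ran from -0.37 to 0.027. None of these genes was called between fasted and fed under the reported settings. For position, leaving out 1 library gave -0.12 to 0.030 for Acss2, -0.062 to 0.22 for Agpat2, -0.14 to 0.14 for Slc25a1, -0.11 to 0.16 for Gpd1, -0.13 to 0.012 for Dgat2 and -0.032 to 0.61 for Pgd, none of them called. Slc25a1 had 0.0058 with RLE scaling, 0.0067 with thinning to 1000 UMIs and 0.14 with even-numbered landmarks. Agpat2 had -0.037 with thinning to 1000 UMIs, -0.0034 with even-numbered landmarks and -0.11 with 5 bins. Acss2 had 0.013 with odd-numbered landmarks, and Pgd -0.017 with even-numbered ones.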
